A study of Mus musculus with 10 samples.

Results

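The 37 genes described here are the transcription factor NRF2 (gene Nfe2l2), its inhibitor KEAP1, and enzymes and carriers that handle oxidants, electrophiles and glutathione. They form a list of gene names with no threshold on a measured value, drawn up when earlier results of these data were known, and all 37 had a row among the 55486 genes of the count table. They were followed in 10 bulk RNA-seq libraries of mouse mammary fibroblasts and mammary tumor cells that were grown alone or together in a gel.

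The study asked how normal mammary fibroblasts (NFs) with and without the surface protein CD26 respond to tumor cells of a mouse model of invasive lobular carcinoma. NFs came from mTmG mice of 8 weeks of age, which carry a reporter that turns from red (Tomato) to green (GFP) when Cre acts; 4 to 6 mice were pooled per sort. The NFs were kept in culture before the gel, and only the CD26+ NFs received an adenovirus with Cre to make them green, so exposure to the virus and the subset cannot be told apart. Tumor cells came from 2 lines, 13-MCB-17 and 10-SJK-221, each made from an end-stage tumor of a mouse with WapCre, active in mammary epithelium, and floxed Cdh1 (Cdh1F/F), so that each line stands for 1 tumor. After 7 days in a gel of collagen and basement membrane extract, the cells were sorted by color. Gel 1 held CD26- and CD26+ NFs without tumor cells (1 library of each), gels 2 and 3 held 13-MCB-17 and 10-SJK-221 cells alone (1 library each), and gels 4 and 5 held both NF subsets with 13-MCB-17 or with 10-SJK-221 cells and gave 3 libraries each. Growth alone or in co-culture and the gel can therefore not be told apart, and p-values measure the spread between these libraries, which may be technical. Between gels 4 and 5 that spread also holds the difference in tumor line. In the fit of tumor cells it holds how far the 2 lines differed in their response.

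NRF2 is held in the cytoplasm by KEAP1, which hands it to the proteasome. Oxidants and electrophiles modify cysteines of KEAP1, NRF2 then enters the nucleus, pairs with a small MAF protein and binds antioxidant response elements near genes for quinone reduction, glutathione synthesis and conjugation, thioredoxin recycling and NADPH supply. Since NRF2 is regulated mainly as a protein, its mRNA level is not a measure of its activity. Mammary epithelium and fibroblasts both use this pathway, and tumor cells are known to draw on glutathione and on cystine uptake.

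Libraries held 14142334 to 18408940 counts, so 3 counts, used as a floor, corresponded to 0.163 to 0.212 CPM (counts scaled to equal library totals). All 10 fibroblast markers were above 1 CPM in all 6 NF libraries, and all 10 epithelial markers were above 1 CPM in all 4 tumor libraries. Epithelial markers were at 0 of 10 in NFs grown alone and at 8 or 9 of 10 in co-cultured NFs, where their summed level was 121 to 327 CPM, against 4233 to 5577 CPM in tumor cells. Relative to the tumor library of the same gel this was 2.72% and 4.02% in CD26- and CD26+ NFs of gel 4 and 2.85% and 6.3% in those of gel 5. Of the fibroblast markers in co-cultured tumor cells, Col6a1 was the highest, at 239 and 245 CPM against 32.6 and 24.4 CPM in tumor cells alone, while Lum stood at 0.226 and 0.228 CPM, against 359 to 553 CPM in co-cultured NFs. The summed fibroblast markers were lower in co-cultured NFs (24999 to 45900 CPM) than in NFs alone (72824 and 78053 CPM). Of 6 immune markers, 2 or 3 exceeded 1 CPM in each library, with Tyrobp at 0 throughout and Ptprc and Adgre1 at no more than 0.127 CPM. Their sum was 11.4 and 13.4 CPM in NFs alone, 31.02 to 62.8 CPM in co-cultured NFs, 301 and 101 CPM in 13-MCB-17 and 10-SJK-221 cells alone and 92.1 and 47.9 CPM in their co-cultures. Cd68 made up most of it except in NFs alone, where it was at 3.48 and 6.53 CPM and Lyz2 at 6.02 and 4.07 CPM, and the part of these markers in the results was not tested. Dpp4, the gene of CD26, reached at most 0.771 CPM, so its mRNA does not check the subset labels. Of 5 endothelial markers, 0 to 3 exceeded 1 CPM in a library, and Pecam1 was highest in co-cultured NFs, at 5.93 to 9.76 CPM.

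Many members were abundant in both cell types. Per kb of exon, Hmox1 (291 and 365 CPM per kb) and Gpx3 (234 and 448 CPM per kb) led in CD26- and CD26+ NFs grown alone, and Txn1, Prdx1, Gsta4 and Hmox1 led in tumor cells grown alone. Hmox1 led in all 4 co-cultured NF libraries, at 684 to 947 CPM per kb. The summed level of the 37 members was 4921 and 6453 CPM in CD26- and CD26+ NFs alone, and 8315, 7946, 7035 and 8656 CPM in co-cultured NFs (CD26- and CD26+ of gel 4, then of gel 5). In tumor cells the sum was 8398 and 5669 CPM alone and 4016 and 4011 CPM in co-culture. NFs thus held more of these transcripts in co-culture than alone, and tumor cells fewer, in every library.

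**Figure D1:**
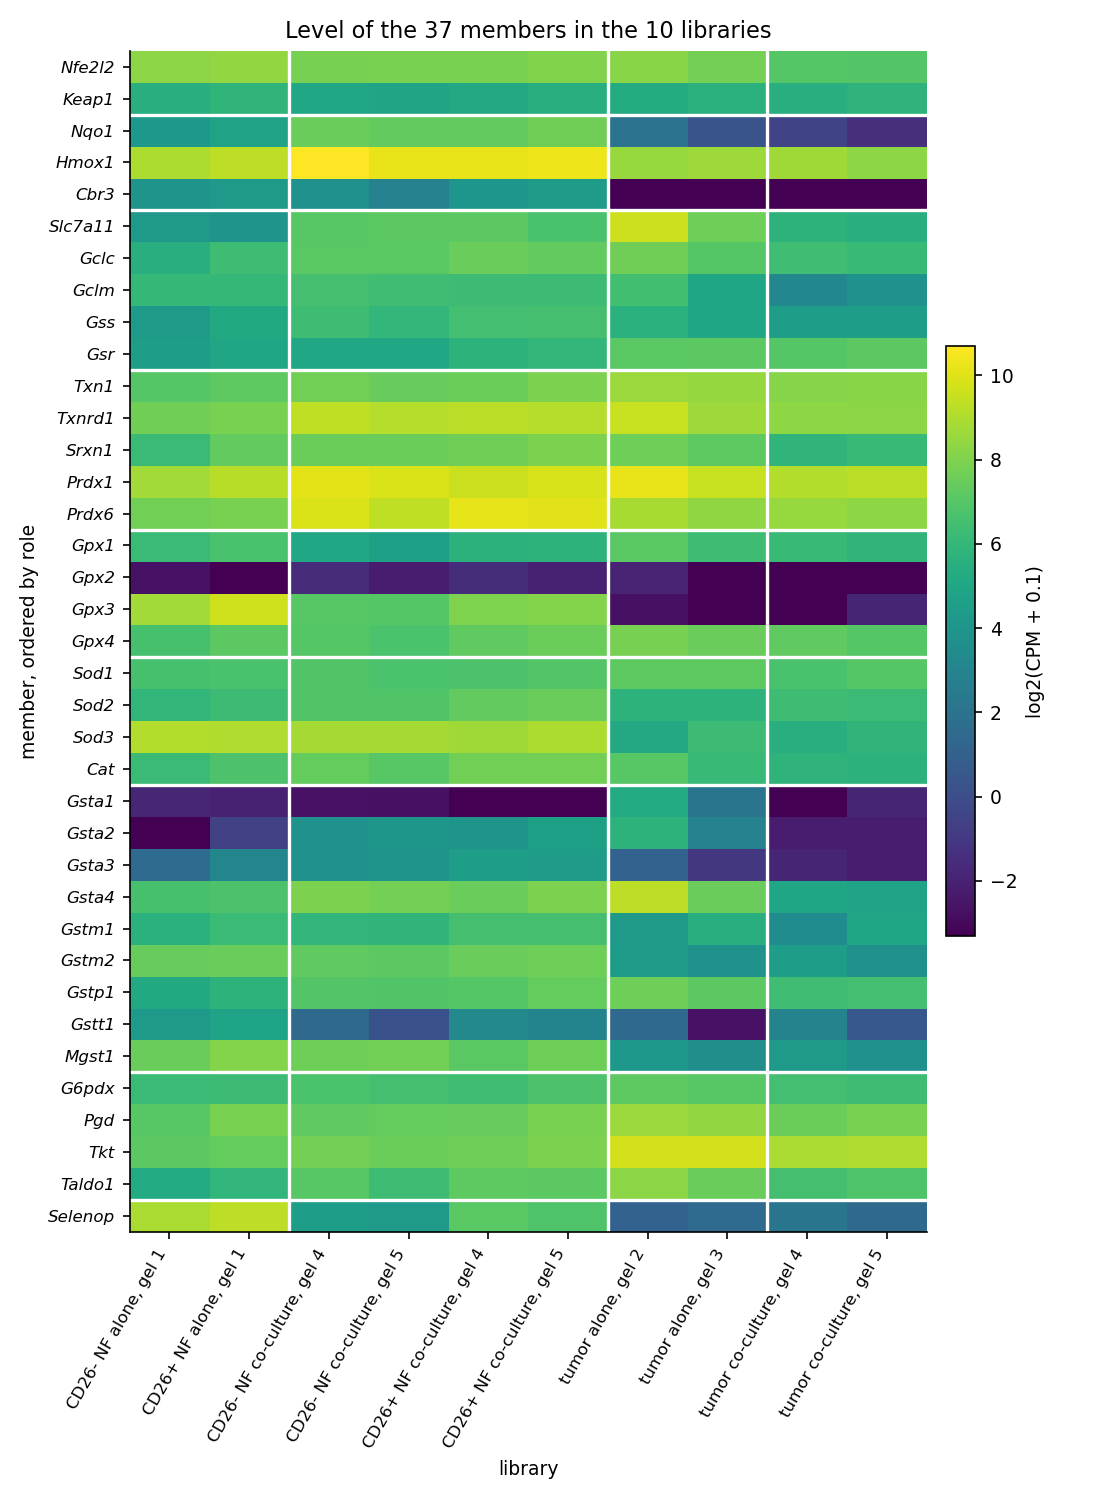
Color gives log2(CPM + 0.1) of each of the 37 members (rows, ordered by role) in each of the 10 libraries (columns), with white lines between groups of libraries and between roles. Nqo1, Slc7a11, Prdx6 and Gsta2 are brighter in the 4 co-cultured NF libraries than in NFs alone, and Slc7a11, Gsta1, Gsta2 and Gsta4 are darker in co-cultured than in single-cultured tumor cells.

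Of 35 members tested in NFs, 22 rose and 6 fell in co-culture when both subsets were fitted together (edgeR quasi-likelihood test, adjusted p under 0.05), where 25.9% of all 15013 genes rose and 22.9% fell. Culture varied only between gels, here gels 4 and 5 against gel 1. The p-values of this fit treat both subsets of a gel as independent libraries, as do those of the fits over all 10 libraries. The median log2 fold change of the members was 0.59 and that of all genes was 0.025. Within CD26- NFs 16 members rose and 4 fell, against 16.6% and 14.1% of all genes, with a median of 0.58. Within CD26+ NFs 15 rose and 5 fell, against 19% and 15.2% of all genes, with a median of 0.50. In the fit of both subsets without gel 5, 17 rose and 5 fell. Of all genes 2730 and 2401 of 14434 then did, against 3891 and 3434 of 15013 with it. Gclm, Gstm1, Txn1, Tkt, G6pdx and Nfe2l2 were no longer called. By single library, 23 of 34 members were above the gel 1 level of the same subset in all 4 co-cultured NF libraries and 7 were below it in all 4, against 30.7% and 37.6% of 13350 genes.

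Tumor cells went the other way. Of 33 members tested, 2 rose and 23 fell in co-culture, against 10.8% and 11.5% of all 13197 genes, with a median log2 fold change of -0.78 (all genes 0.01). Of 30 members with a ratio in both lines, 22 were lower and 3 higher in co-culture in both, against 33.5% and 40.4% of 13231 genes. In each of the 22 the fall was the larger in 13-MCB-17, in some by little (G6pdx, CPM ratio 0.614 against 0.622). The share of all genes with a larger fall in that line was not counted. The median log2 ratio was -0.93 in 13-MCB-17 and -0.46 in 10-SJK-221 cells (all genes 0.06 and 0.01). This fit had 4 libraries with line as a term. Without the line term it called 0 of all 13197 genes, members included (2207 had an unadjusted p under 0.05). DESeq2, with the line term, called 19 members and 1568 genes, against 2942 genes with edgeR. A fit over all 10 libraries called 22 members and 1817 of 17048 genes. The same fit called 6 members without either 13-MCB-17 library, alone or co-cultured (Slc7a11, Gclm, Srxn1, Gsta1, Gsta2 and Gsta4), and 18 without either 10-SJK-221 library. Over all genes it called 418 and 406 in the first case and 1014 in each fit of the second.

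The test of the difference in response between the cell types, fitted over all 10 libraries, called 25 of 36 members with a higher change in NFs and 3 with a lower one, against 16.9% and 13.8% of all 17048 genes. Of 32 members tested in both cell types, 17 rose in co-cultured NFs and fell in co-cultured tumor cells, against 4.64% of the 12383 genes tested in both. They were Nqo1, Slc7a11, Gclc, Gclm, Gss, Txn1, Txnrd1, Srxn1, Prdx1, Cat, Gsta2, Gsta4, Gstm1, Gstp1, G6pdx, Tkt and Taldo1. The fall in tumor cells was not called for Prdx1 with RLE scaling, for Nqo1, Gclm, Txn1 and Taldo1 with DESeq2, or for Prdx1 and Txn1 in the fit over all 10 libraries. Nfe2l2 and Gpx1 fell in both cell types (1.86% of genes tested in both). Sod2 rose in both (3.42%). Gstt1 fell in NFs and rose in tumor cells (3.24%). In bulk samples, fewer cells of one kind and less RNA per cell cannot be told apart.

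**Figure D2:**
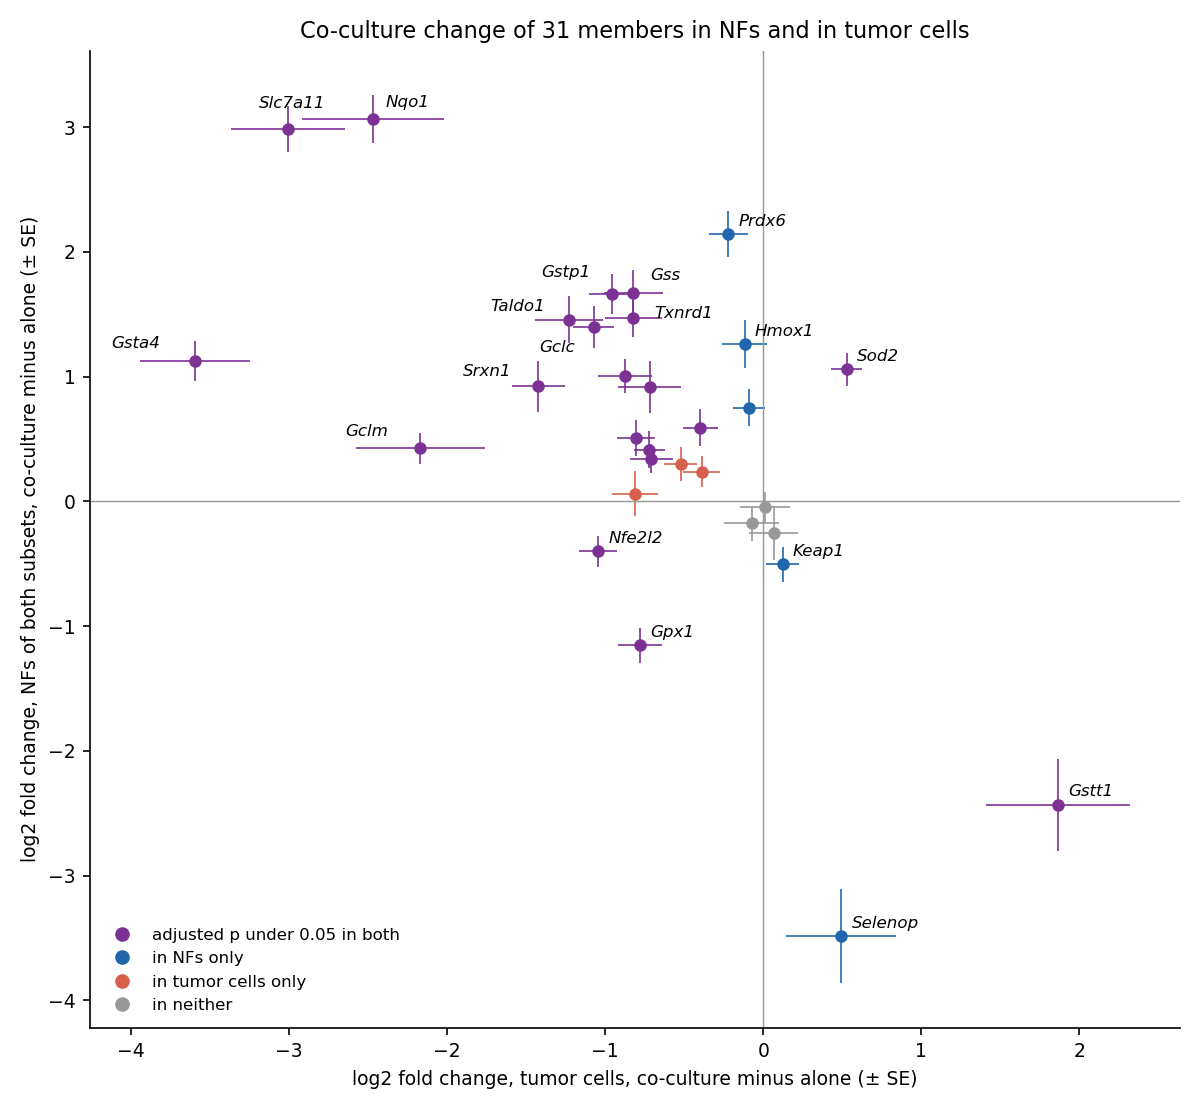
Each point is 1 of 31 members, with the log2 fold change between co-culture and growth alone in tumor cells (x axis) and in NFs of both subsets (y axis), bars of 1 SE, and color for the cell types in which the adjusted p was under 0.05. Slc7a11 and Nqo1 lie at the upper left, high in NFs (2.98 and 3.06) and low in tumor cells (-3.01 and -2.47), while Gstt1 lies at the lower right.

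When each cell type was grown alone, members split between the cell types: 13 of 36 were higher in NFs and 18 were lower, against 32.3% and 29.6% of all genes, with a median of -0.45 (NFs minus tumor cells). Without 13-MCB-17 cells alone the counts were 11 and 10, where 2999 and 3530 of 16984 genes were called. Without 10-SJK-221 cells alone they were 8 and 19, where 3076 and 3635 of 16939 genes were called. In co-culture 25 were higher in NFs and 3 were lower, against 32.4% and 27.1% of all genes, with a median of 1.34. Among them 10 were higher in tumor cells alone and higher in NFs in co-culture (Slc7a11, Gclc, Txnrd1, Srxn1, Prdx1, Prdx6, Gsta2, Gsta4, Gstp1 and G6pdx), and 0 switched the other way, against 2.21% and 1.72% of all genes. Without 13-MCB-17 cells alone Srxn1, Prdx1, Prdx6 and Gsta4 lost the call alone, and without co-cultured 13-MCB-17 cells Slc7a11, Prdx1, Gstp1 and G6pdx lost the one in co-culture. Srxn1 also lost the call alone with DESeq2 and without the line term. G6pdx lost the one in co-culture also with gel as a block, without the line term, without either co-cultured CD26- library and without co-cultured 10-SJK-221 cells.

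**Figure D3:**
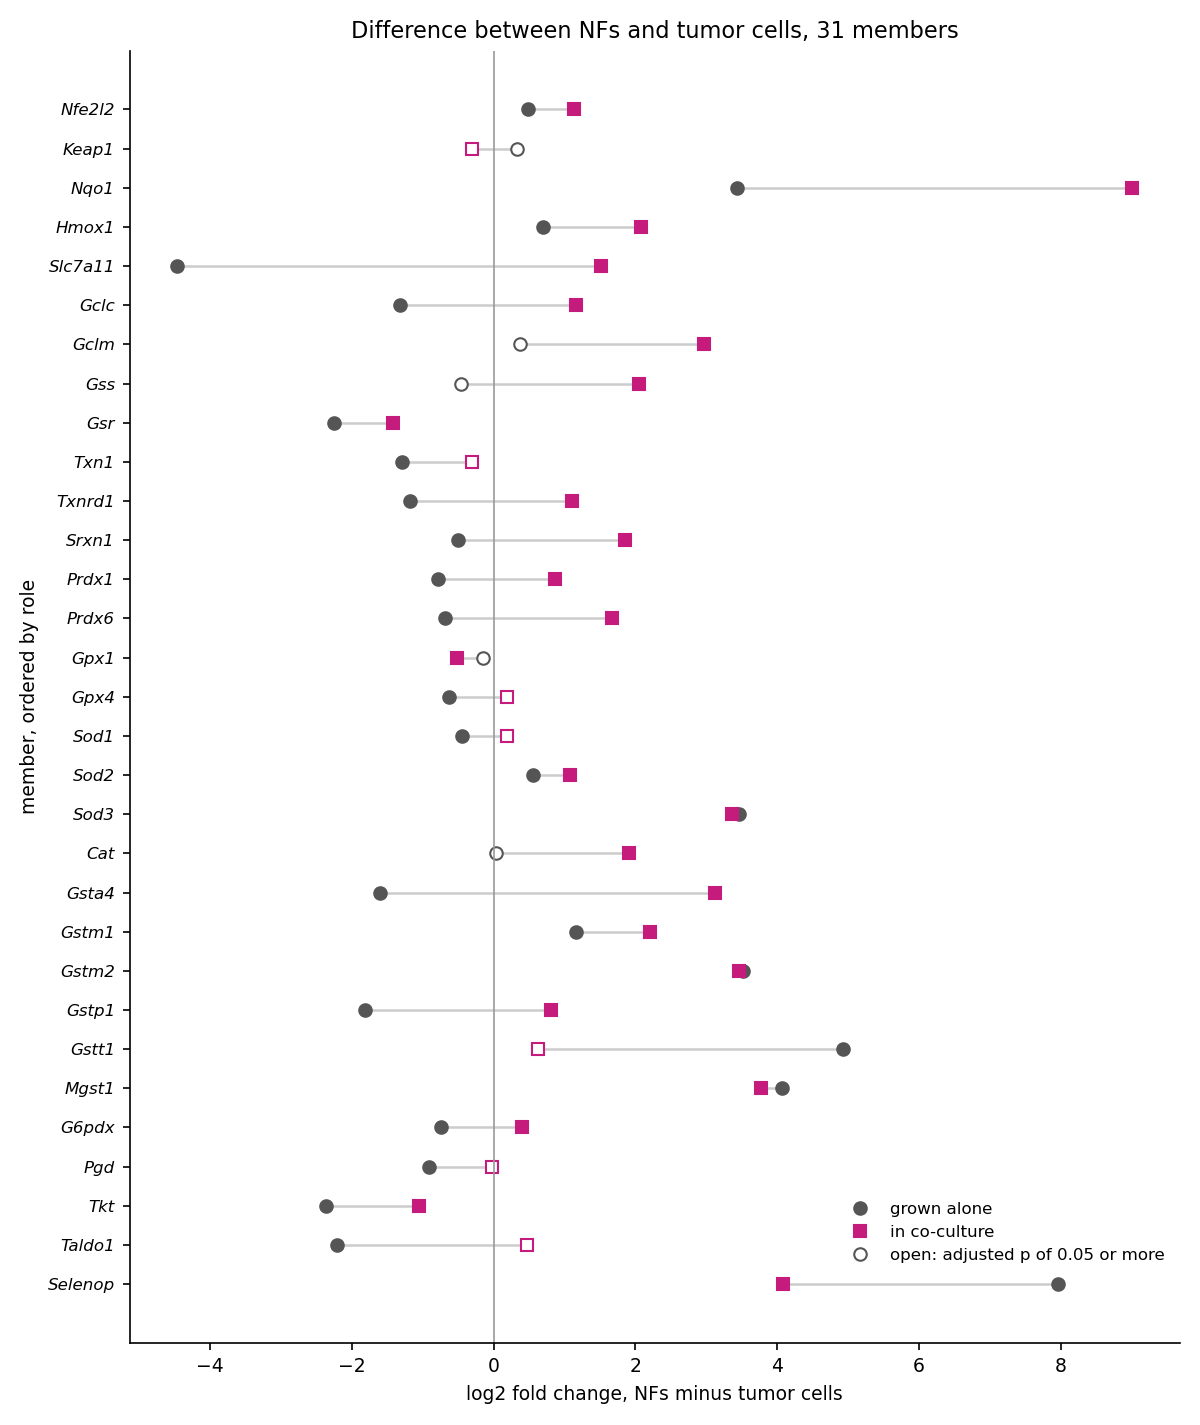
Log2 fold change between NFs and tumor cells for 31 members (rows, ordered by role), grown alone (circles) and in co-culture (squares); open symbols have an adjusted p of 0.05 or more. Slc7a11 moved from -4.46 to 1.52 and Gsta4 from -1.60 to 3.12, whereas Sod3, Gstm2 and Mgst1 stayed above 3 in both.

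The mRNA of both regulators fell in co-cultured NFs, and that of Nfe2l2 also fell in tumor cells. Nfe2l2, the NRF2 gene, was at 310.3 and 345 CPM in CD26- and CD26+ NFs alone and at 225, 238, 233 and 265 CPM in co-cultured NFs (CD26- and CD26+ of gel 4, then of gel 5, the order used throughout). All 4 co-cultured NF libraries were below both single-cultured ones. The log2 fold change was -0.40 ± 0.13 (SE, adjusted p = 0.0258, edgeR), and it was not called without gel 4 (-0.32, adjusted p = 0.0998) or without gel 5 (-0.50, adjusted p = 0.0582). In tumor cells Nfe2l2 fell from 293 and 222 CPM in 13-MCB-17 and 10-SJK-221 cells alone to 128 and 123 CPM in co-culture, a change of -1.05 ± 0.12 (adjusted p = 0.000741), not called in the fit over all libraries without either 13-MCB-17 library (adjusted p = 0.101 and 0.107). The 2 responses differed by 0.64 ± 0.21 (adjusted p = 0.0373), a call lost without 7 of the 8 libraries left out in turn, the exception being CD26+ NFs of gel 4. Nfe2l2 was higher in NFs than in tumor cells by 0.49 ± 0.16 alone (adjusted p = 0.0177, and 0.376 without 10-SJK-221 cells alone) and by 1.13 ± 0.14 in co-culture (adjusted p = 2.888e-05).

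Keap1, the adaptor that marks NRF2 for degradation, was at 45.3 and 57.9 CPM in NFs alone and at 32.7, 34.6, 29.2 and 44.2 CPM in co-cultured NFs, a fall of 0.51 on the log2 scale (SE 0.14, adjusted p = 0.0154). Tumor cells had 40.03 and 50.1 CPM of Keap1 when alone, against 45.1 and 54.6 CPM in co-culture, and the groups overlapped (0.12 ± 0.10, adjusted p = 0.456). The difference in response was -0.63 ± 0.22 (adjusted p = 0.047) and was not called in 10 of 12 alternatives (adjusted p up to 0.195). Among these were RLE scaling, DESeq2, no filter on low counts, no line term and 6 of the 8 libraries left out in turn, the exceptions being the co-cultured CD26+ libraries. NFs and tumor cells did not differ past the threshold in Keap1 alone (0.32 ± 0.17, adjusted p = 0.109) or in co-culture (-0.31 ± 0.14, adjusted p = 0.0835). Another gene, Gm16754, covers 10.9% of the Keap1 exons, and whether counting used strand is not given in the sources used here.

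Promoters from RefSeq (GRCm38.p6) were searched for the core letters of the antioxidant response element, TGACNNNGC, on both strands of the 250 bases before each start site. The letters were found in 8 of 31 members with a window, against 11.5% of 27025 genes and 10.2% of all windows of that length. The 8 were Nfe2l2, Gclm, Gsta3, Mgst1, Prdx1, Txnrd1, Sod1 and G6pdx. The windows of Nfe2l2, Gclm and Gsta3 are printed because they lie outside annotated exons and belong to the regulator, to an enzyme whose mRNA moved in opposite directions in the cell types, and to a transferase that rose in NFs. They read 5′ to 3′ along the gene, with the match in capitals, and a match is a description of letters, not of binding.
Nfe2l2, chr2:75704664-75704913, minus strand, match 240 bases before the start: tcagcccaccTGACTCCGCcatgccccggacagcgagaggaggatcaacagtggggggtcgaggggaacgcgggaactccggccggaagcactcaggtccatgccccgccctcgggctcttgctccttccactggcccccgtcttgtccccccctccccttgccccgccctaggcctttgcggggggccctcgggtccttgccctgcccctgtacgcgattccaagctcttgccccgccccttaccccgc
Gclm, chr3:122245307-122245556, plus strand, match 134 bases before the start, on the opposite strand: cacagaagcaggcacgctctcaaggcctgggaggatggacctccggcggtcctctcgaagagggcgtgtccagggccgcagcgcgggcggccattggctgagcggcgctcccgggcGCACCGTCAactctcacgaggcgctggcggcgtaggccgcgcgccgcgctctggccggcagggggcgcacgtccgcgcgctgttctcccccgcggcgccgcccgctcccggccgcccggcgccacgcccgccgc
Gsta3, chr1:21240335-21240584, plus strand, match 121 bases before the start: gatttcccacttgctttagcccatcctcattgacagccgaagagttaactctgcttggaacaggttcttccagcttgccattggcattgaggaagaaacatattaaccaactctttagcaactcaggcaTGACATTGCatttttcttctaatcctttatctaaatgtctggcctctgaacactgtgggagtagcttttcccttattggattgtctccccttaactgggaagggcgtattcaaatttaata
The match of Prdx1 reads GCTGAGTCA and overlaps TGAGTCA, the letters bound by AP-1. Nqo1, Slc7a11 and Gss had a window without a match, and Hmox1, Gclc, Gsr, Prdx6, Gsta4 and Sod3 had no window here.

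Nqo1, which reduces quinones and is a common readout of NRF2, moved in opposite directions in the cell types. It was at 17.7 and 26.7 CPM in NFs alone and at 183, 162, 160.4 and 205 CPM in co-cultured NFs, so the groups were far apart. The change was 3.06 ± 0.19 (adjusted p = 2.598e-06). Tumor cells held 4.02 and 1.15 CPM alone and 0.622 and 0.285 CPM in co-culture, a change of -2.47 ± 0.45 (adjusted p = 0.00591). That call in tumor cells was lost with DESeq2 (adjusted p = 0.0602), without the line term (adjusted p = 0.261) and without 13-MCB-17 cells alone or in co-culture (adjusted p = 0.178 and 0.184). The responses differed by 5.57 ± 0.38 (adjusted p = 1.375e-06). NFs exceeded tumor cells by 3.43 ± 0.22 alone (adjusted p = 6.153e-08) and by 9.00 ± 0.27 in co-culture (adjusted p = 2.271e-10).

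Hmox1, heme oxygenase 1, which breaks heme down to biliverdin, iron and carbon monoxide, was at 509.7 and 639 CPM in NFs alone. In co-cultured NFs it stood at 1659, 1197, 1224 and 1277 CPM, above both single-cultured libraries in each case (1.26 ± 0.19, adjusted p = 0.000559). Tumor cells held 367 and 404 CPM alone and 418 and 312 CPM in co-culture, with overlapping groups (-0.12 ± 0.14, adjusted p = 0.609). The responses differed by 1.39 ± 0.25 (adjusted p = 0.00139). NFs were higher by 0.69 ± 0.19 alone (adjusted p = 0.00669, and 0.236 without 13-MCB-17 cells alone) and by 2.08 ± 0.18 in co-culture (adjusted p = 7.997e-07).
Cbr3, a carbonyl reductase, was expressed in NFs, at 7.31 to 21.6 CPM over 6 libraries, and had 0 counts in all 4 tumor libraries. Against 3 counts a library, NFs were at least 95.3-fold higher alone and at least 85.7-fold higher in co-culture. Its change in co-cultured NFs was -0.23 ± 0.24 (adjusted p = 0.459), so of the 3 quinone, heme and carbonyl enzymes, Nqo1 and Hmox1 rose, against 25.9% of all genes.

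All 5 genes of glutathione supply rose in co-cultured NFs, where 25.9% of all genes rose, and 4 of the 5 fell in co-cultured tumor cells, where 11.5% of all genes fell. Slc7a11, the cystine carrier of the xCT exchanger, was at 19.3 and 15.02 CPM in NFs alone and at 135, 144, 142 and 101 CPM in co-cultured NFs (2.98 ± 0.18, adjusted p = 2.329e-06). In tumor cells it went from 782 and 196 CPM alone to 54.01 and 46.1 CPM in co-culture (-3.01 ± 0.36, adjusted p = 0.000908). Its level was higher in tumor cells when grown alone (NFs minus tumor cells -4.46 ± 0.36, adjusted p = 4.847e-07) and higher in NFs in co-culture (1.52 ± 0.30, adjusted p = 0.000844). The responses differed by 5.98 ± 0.47 (adjusted p = 4.021e-06). The call in co-culture was lost without the co-cultured 13-MCB-17 library. The tumor lines were far apart in Slc7a11 when grown alone and close to each other in co-culture.

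Gclc, the catalytic subunit of glutamate-cysteine ligase, was at 43.96 and 80.7 CPM in NFs alone and at 136, 181, 139 and 161 CPM in co-cultured NFs (1.40 ± 0.17, adjusted p = 0.000119). In tumor cells it went from 204 and 129 CPM to 84.6 and 73.2 CPM (-1.07 ± 0.13, adjusted p = 0.000918). The responses differed by 2.48 ± 0.21 (adjusted p = 7.506e-06), and the difference between cell types turned from -1.32 ± 0.16 alone (adjusted p = 1.692e-05) to 1.16 ± 0.14 in co-culture (adjusted p = 2.151e-05).
Gclm, the modifier subunit of the same enzyme, moved little in NFs and far in tumor cells. It was at 65.1 and 63.9 CPM in NFs alone and at 95.4, 79.3, 84.9 and 77.4 CPM in co-cultured NFs (0.43 ± 0.12, adjusted p = 0.0176), a call lost without gel 5 (adjusted p = 0.0868). Tumor cells went from 86.1 and 30.4 CPM to 9.33 and 14.3 CPM (-2.17 ± 0.41, adjusted p = 0.00682, not called by DESeq2 or without the line term). The responses differed by 2.59 ± 0.47 (adjusted p = 0.00143). NFs exceeded tumor cells in co-culture by 2.97 ± 0.34 (adjusted p = 1.166e-05). The difference alone was 0.38 ± 0.33 (adjusted p = 0.345). Its sign depended on the tumor library. It was -0.61 without 10-SJK-221 cells alone and 1.54 without 13-MCB-17 cells alone (adjusted p = 0.000164).

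Gss, glutathione synthetase, rose in NFs from 18.8 and 36.01 CPM to between 62.2 and 93.3 CPM (1.67 ± 0.18, adjusted p = 6.805e-05) and fell in tumor cells from 49.6 and 30.2 CPM to 22.2 and 22.6 CPM (-0.82 ± 0.18, adjusted p = 0.0145). Genes that overlap Gss cover 15.4% of its exons. Gsr, which regenerates reduced glutathione with NADPH, stood apart from the other 4: it was higher in tumor cells in both cultures, at 139.9 and 142 CPM alone and 128 and 142 CPM in co-culture. In NFs it was at 23.2 and 31.02 CPM alone and at 33.5, 53.3, 32.9 and 62.1 CPM in co-culture (0.75 ± 0.15, adjusted p = 0.00265). RNA carried over from tumor cells, at the epithelial shares above, would make up 9.6% to 14.4% of the Gsr level in co-cultured NFs, and its part in that rise was not tested.

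**Figure D4:**
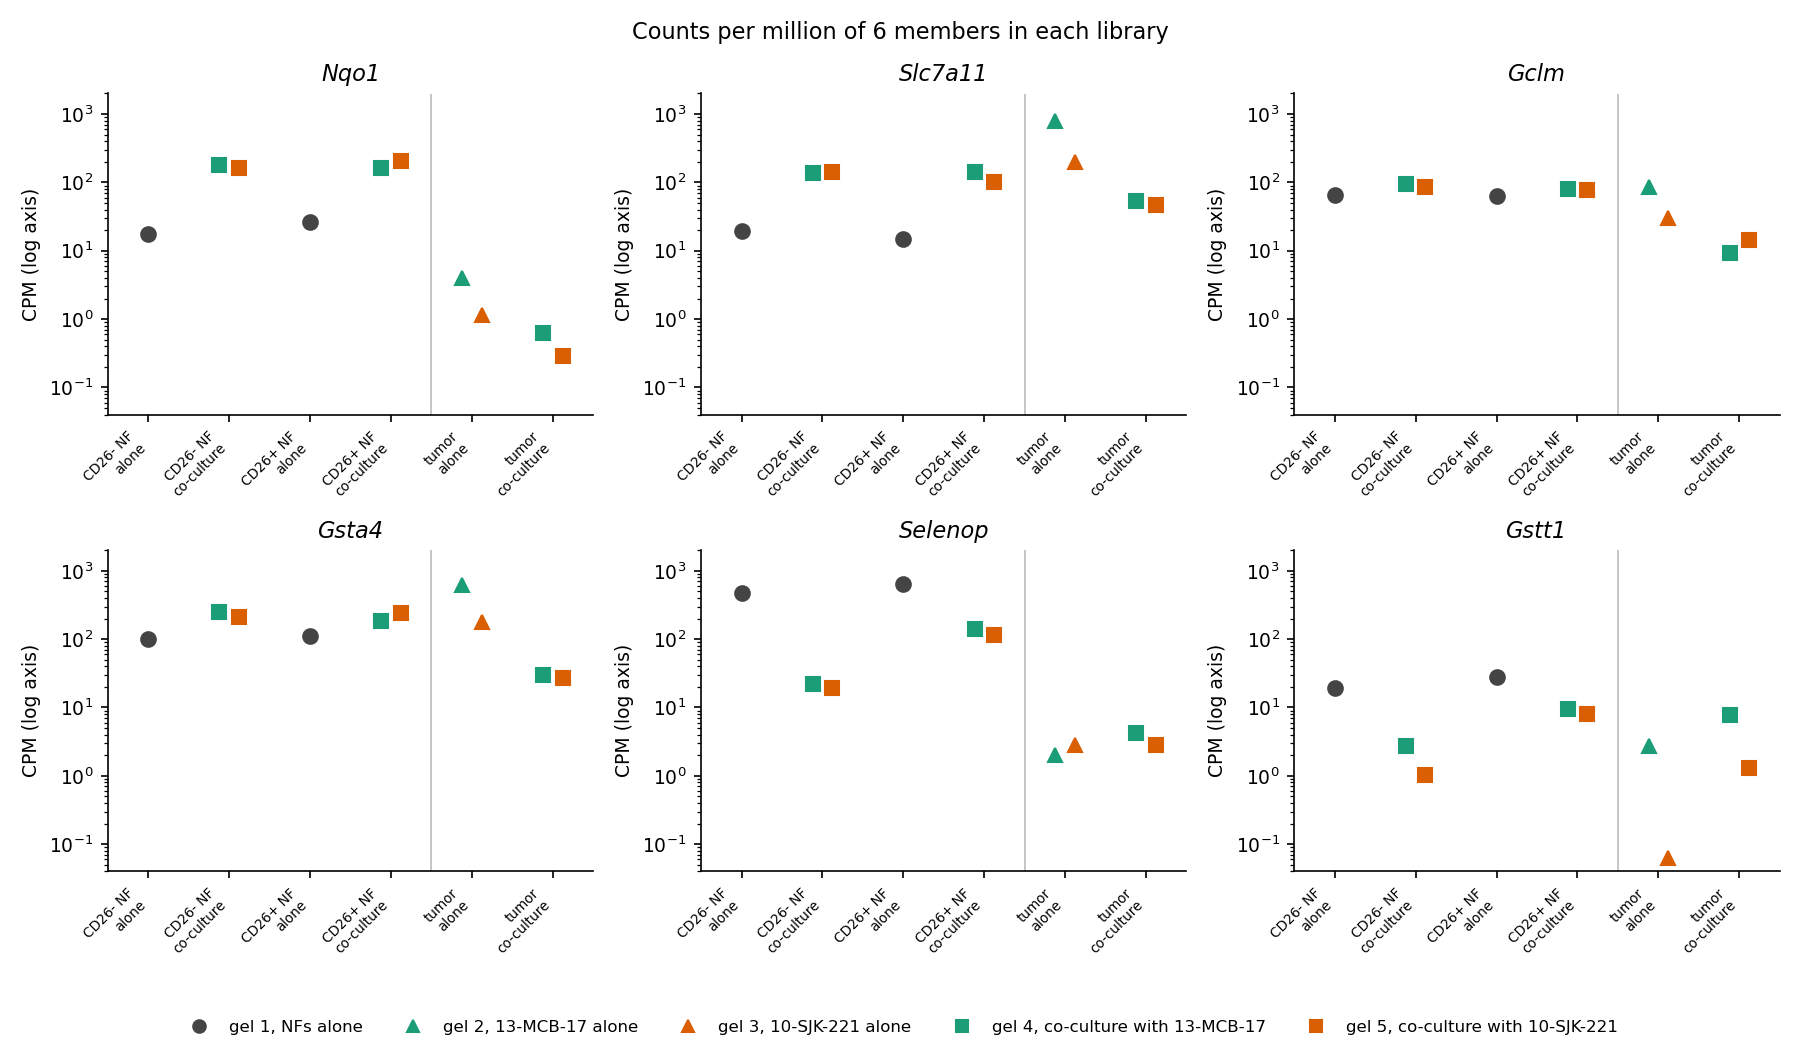
CPM on a log axis in each library for 6 members, with NF groups to the left and tumor groups to the right of the grey line, shapes for the kind of gel and colors for the tumor line. Nqo1 and Slc7a11 lie higher in co-cultured NFs than in NFs alone, Gclm and Gsta4 lie lower in co-cultured tumor cells, and Selenop and Gstt1 lie lower in co-cultured NFs, the more so in CD26- NFs.

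All 5 thioredoxin and peroxiredoxin genes rose in co-cultured NFs, against 25.9% of all genes, and all except Prdx6 fell in co-cultured tumor cells, against 11.5% of all genes. The fall of Prdx1 was not called with RLE scaling. That of Txn1 was not called with DESeq2. Neither was called in the fit over all 10 libraries. Prdx6, a peroxiredoxin that uses glutathione, was at 208 and 236 CPM in NFs alone and at 963, 1147, 662 and 1079 CPM in co-cultured NFs (2.14 ± 0.18, adjusted p = 1.532e-05). It was at 472 and 325 CPM in tumor cells alone and at 367 and 319 CPM in co-culture, groups that overlapped (-0.22 ± 0.12, adjusted p = 0.251). Txnrd1, thioredoxin reductase, rose in NFs from 205 and 237 CPM to between 555 and 656 CPM (1.47 ± 0.15) and fell in tumor cells from 736 and 401 CPM to 323 and 303 CPM (-0.82 ± 0.18). Srxn1, which repairs overoxidized peroxiredoxins, rose in NFs from 74.3 and 161 CPM to between 186 and 242 CPM (0.92 ± 0.21) and fell in tumor cells from 193 and 148 CPM to 56.8 and 72.5 CPM (-1.42 ± 0.17). Prdx1 rose from 426 and 589 CPM to between 755 and 1102 CPM in NFs (0.92 ± 0.20) and fell from 1205 and 722 CPM to 549.5 and 606 CPM in tumor cells (-0.72 ± 0.20). Txn1, thioredoxin, changed by 0.59 ± 0.15 in NFs and by -0.40 ± 0.11 in tumor cells. Txnrd1, Srxn1, Prdx1 and Prdx6 were among the 10 members that were higher in tumor cells alone and higher in NFs in co-culture.

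Of the glutathione peroxidases, which reduce peroxides with glutathione, 2 of the 3 tested fell in co-cultured NFs, against 22.9% of all genes, and 1 was not called. Gpx3, the secreted form, was at 424 and 811 CPM in NFs alone and at 132, 249, 129 and 271 CPM in co-cultured NFs, so all 4 lay below both single-cultured libraries (-1.62 ± 0.12, adjusted p = 7.508e-06). It had 1 count in tumor cells grown alone and 3 in co-culture, and the ratio of NFs to tumor cells was 20700 alone (95% counting interval 3710 to 816000) and 2240 in co-culture (766 to 10900). Intervals of counts cover counting error only. Gpx1, the cytosolic form, fell in NFs from 76.3 and 102 CPM to 32.1, 51.1, 25.1 and 52.4 CPM (-1.15 ± 0.14, adjusted p = 0.000149), and in tumor cells from 139 and 81.1 CPM to 68.8 and 57.8 CPM (-0.78 ± 0.14, adjusted p = 0.005). The Gpx1 responses did not differ past the threshold (-0.38 ± 0.22, adjusted p = 0.237). In co-culture NFs were lower than tumor cells by 0.52 (SE 0.15, adjusted p = 0.0088). It was no longer called without co-cultured 10-SJK-221 cells (-0.23, adjusted p = 0.505) and without the line term (adjusted p = 0.0825). Gpx4, which reduces lipid peroxides in membranes, changed by 0.30 ± 0.14 in NFs (adjusted p = 0.0941) and by -0.52 ± 0.10 in tumor cells (adjusted p = 0.008), and 33.9% of its 54-base windows also occur in transcripts of other genes. Gpx2, the gut form, was at no more than 0.257 CPM in any library and was not tested.

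Selenop, the secreted selenium carrier that supplies cells with selenium for selenoproteins such as the glutathione peroxidases, fell most in NFs. It was at 475 and 642 CPM in CD26- and CD26+ NFs alone. In co-culture it stood at 22.3 and 19.2 CPM in CD26- NFs and at 139 and 116 CPM in CD26+ NFs, so that the 2 subsets, close when alone, were apart in co-culture. The change was -3.49 ± 0.38 over both subsets (adjusted p = 6.518e-05). Tumor cells held 2.01 and 2.86 CPM alone and 4.19 and 2.80 CPM in co-culture (0.49 ± 0.35, adjusted p = 0.364). NFs exceeded tumor cells in Selenop by 7.96 ± 0.25 alone and 4.08 ± 0.21 in co-culture. Ccdc152, a gene that overlaps Selenop, covers 15.4% of its exons.

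Of the superoxide dismutases, which turn superoxide into peroxide, and catalase, which removes peroxide, Sod2 and Cat rose in NFs and Sod1 and Sod3 were not called. Sod2, the mitochondrial form, went from 63.3 and 79.1 CPM to 119, 162, 119 and 179.9 CPM in NFs (1.06 ± 0.13, adjusted p = 0.000163). It was the one member to rise in both cell types, from 52.7 and 53.1 CPM to 79.6 and 75.5 CPM in tumor cells (0.53 ± 0.10, adjusted p = 0.00669). That call was lost with DESeq2 (adjusted p = 0.0516), without the line term (adjusted p = 0.168) and, in the fit over all libraries, without any 1 of the 4 tumor libraries (adjusted p = 0.264 to 0.495). Cat rose in NFs from 76.1 and 110.3 CPM to between 133 and 212 CPM (1.00 ± 0.13) and fell in tumor cells from 132 and 70.7 CPM to 56.2 and 51.6 CPM (-0.88 ± 0.17). Sod3, the extracellular form, remained a fibroblast gene, at 411 to 549 CPM in NFs and 35.2 to 77.1 CPM in tumor cells.

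Glutathione S-transferases join glutathione to electrophiles, and 5 of the 8 tested rose in co-cultured NFs, against 25.9% of all genes (Gsta2, Gsta3, Gsta4, Gstm1 and Gstp1) while Gstt1 fell. In tumor cells 5 of 8 fell, against 11.5% of all genes (Gsta1, Gsta2, Gsta4, Gstm1 and Gstp1) and Gstt1 rose. Gsta2 had 0 counts in CD26- NFs alone and 0.562 CPM in CD26+ NFs alone, against 13.6, 15.1, 16.8 and 25.2 CPM in co-cultured NFs. CD26- NFs were at least 81.7-fold higher in co-culture, and CD26+ NFs rose by 5.18 ± 0.52 (adjusted p = 5.901e-06). Co-cultured tumor cells held 4 counts of Gsta2 in all, and in them it was 285-fold lower than alone by the ratio of summed counts (95% counting interval 111 to 1050), while co-cultured NFs were 153-fold above co-cultured tumor cells (59.7 to 564). Alone, NFs were lower in Gsta2 than tumor cells (-8.17 ± 0.63, a fitted value that depends on the prior count).

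Gsta1, which shares 89.6% of its 54-base windows with transcripts of Gsta2 and related genes, was seen in tumor cells alone only, at 37.6 and 4.33 CPM, and at no more than 0.186 CPM elsewhere. Its ratio in tumor cells was 262-fold lower in co-culture (89.2 to 1270), and reads of Gsta1 and Gsta2, which shares 47.1% of its windows, could be exchanged between them. Gsta4, which clears 4-hydroxynonenal and shares no window with another gene, was at 99.5 and 110 CPM in NFs alone and at 246, 183, 215 and 242 CPM in co-cultured NFs (1.13 ± 0.16, adjusted p = 0.000415). In tumor cells it went from 626 and 177 CPM to 29.6 and 26.9 CPM (-3.60 ± 0.35, adjusted p = 0.000358), so that both co-cultured libraries were far below both single-cultured ones. Gsta3 rose in NFs from 2.92 and 8.63 CPM to 14.9, 22.1, 15.1 and 21.3 CPM (1.82 ± 0.25, adjusted p = 0.000302). Tumor cells had 2.01 and 0.382 CPM of Gsta3 when alone, against 0.170 and 0.114 CPM in co-culture, a ratio of summed counts that was 8.87-fold lower (95% counting interval 3.52 to 28.7). The filter on low counts kept Gsta3 out of the fit of the 4 tumor libraries, and it was called lower without that filter and in the fit over all 10 libraries.

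Gstp1, the pi-class transferase, rose in NFs from 35.9 and 52.9 CPM to between 120.2 and 165 CPM (1.66 ± 0.16) and fell in tumor cells from 197 and 141 CPM to 84.1 and 90.9 CPM (-0.96 ± 0.15). It shares 33% of its windows with Gstp2 and a pseudogene. Gstt1, the theta-class transferase, fell in NFs from 19.3 and 27.5 CPM to 2.73, 9.51, 1.04 and 8.06 CPM (-2.43 ± 0.37, adjusted p = 0.00057), with both CD26- libraries below both CD26+ ones. In tumor cells Gstt1 was at 2.72 and 0.0636 CPM alone and at 7.69 and 1.31 CPM in co-culture (1.87 ± 0.46, adjusted p = 0.021), a rise within each line with groups that overlapped, and it was not called without any 1 of the 4 tumor libraries. Mgst1, a membrane-bound transferase, and Gstm2 were fibroblast genes in both cultures: Mgst1 was at 139 to 270.4 CPM in NFs and at 11.9 to 18.1 CPM in tumor cells, and Gstm2 at 143 to 191 CPM and 13.2 to 22.9 CPM.

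The NADPH supply genes of the pentose phosphate pathway were higher in tumor cells alone in 4 of 4 cases, against 29.6% of all genes, and fell there in co-culture in 4 of 4, against 11.5% of all genes. Tkt, transketolase, was at 879 and 844 CPM in tumor cells alone and at 490.1 and 515 CPM in co-culture (-0.80 ± 0.12, adjusted p = 0.00244). In NFs it was at 141 and 165 CPM alone and at 215, 197, 184 and 246 CPM in co-culture (0.51 ± 0.14, adjusted p = 0.0156), of which carried-over tumor RNA would make up 6.2% to 13.2%, a part in the rise that was not tested. Tkt was higher in tumor cells in both cultures (NFs minus tumor cells -2.37 ± 0.18 alone and -1.06 ± 0.14 in co-culture). Taldo1, transaldolase, rose in NFs from 37.6 and 59.8 CPM to 134, 152, 81.8 and 145 CPM (1.46 ± 0.19) and fell in tumor cells from 306 and 182 CPM to 93.2 and 113 CPM (-1.23 ± 0.21). G6pdx, glucose-6-phosphate dehydrogenase, rose by 0.42 ± 0.15 in NFs, and Pgd, a later NADPH-forming enzyme of the pathway, changed by 0.06 ± 0.18 (adjusted p = 0.794).

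The response was also fitted within each NF subset. There the arm grown alone is 1 library. It is assumed to vary like the pairs of co-cultured libraries, the only source of the spread in this fit. In CD26- NFs the members with the highest and lowest called changes, beside Gsta2, were Nqo1 (3.34 ± 0.27, adjusted p = 6.475e-07), Slc7a11 (2.92 ± 0.27, adjusted p = 2.898e-06), Gsta3 (2.42 ± 0.29, adjusted p = 3.102e-05), Selenop (-4.45 ± 0.21, adjusted p = 6.311e-09), Gstt1 (-3.31 ± 0.36, adjusted p = 1.169e-05), Gpx3 (-1.63 ± 0.20, adjusted p = 3.347e-05) and Gpx1 (-1.35 ± 0.20, adjusted p = 0.000185). In CD26+ NFs they were, beside Gsta2, Slc7a11 (3.06 ± 0.28, adjusted p = 2.415e-06), Nqo1 (2.82 ± 0.26, adjusted p = 2.545e-06), Prdx6 (2.28 ± 0.27, adjusted p = 2.309e-05), Selenop (-2.29 ± 0.20, adjusted p = 1.718e-06), Gstt1 (-1.61 ± 0.32, adjusted p = 0.00188), Gpx3 (-1.60 ± 0.20, adjusted p = 3.884e-05) and Gpx1 (-0.93 ± 0.20, adjusted p = 0.00301). Hmox1 rose by 1.56 ± 0.25 in CD26- NFs (adjusted p = 0.00034) and by 0.99 ± 0.24 in CD26+ NFs (adjusted p = 0.00688), and Gclc by 1.71 ± 0.22 (adjusted p = 5.287e-05) and 1.12 ± 0.21 (adjusted p = 0.00122). Hmox1 and Gstt1 were not called in CD26+ NFs without either co-cultured CD26+ library. Within single subsets Gclm (0.53 ± 0.20, adjusted p = 0.0611, and 0.33 ± 0.20, adjusted p = 0.221), Nfe2l2 (-0.37 ± 0.21, adjusted p = 0.187, and -0.42 ± 0.21, adjusted p = 0.13) and Keap1 (-0.48 ± 0.22, adjusted p = 0.112, and -0.52 ± 0.22, adjusted p = 0.0829) did not pass the threshold. Both subsets of a gel shared that gel, so these values are not independent of each other.

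The test of whether the response to co-culture differed between the subsets called 1 of 35 members higher in CD26+ NFs and 0 lower, against 0.228% and 0.148% of all genes. The one was Selenop (2.16 ± 0.30, adjusted p = 0.00739), whose fall was smaller in CD26+ NFs. An unadjusted p under 0.05 was reached by 2 members higher and 5 lower, and by 1265 of 16231 genes in both directions. With gel as a block Gstt1 was called too, where 395 genes were called against 61 without the block. For Selenop the single gels were also compared. Its log2 CPM ratio of CD26+ to CD26- NFs was 0.44 in gel 1, 2.64 in gel 4 and 2.60 in gel 5. The call was lost without CD26+ NFs of gel 4 (2.03, adjusted p = 0.637), CD26- NFs of gel 5 (2.09, adjusted p = 0.0555) or CD26+ NFs of gel 5 (2.21, adjusted p = 0.409). The interaction values were -0.05 ± 0.30 for Nfe2l2 (adjusted p = 1.00), -0.03 ± 0.31 for Keap1 (adjusted p = 1.00), -0.52 ± 0.32 for Nqo1 (adjusted p = 0.796), -0.57 ± 0.33 for Hmox1 (adjusted p = 0.774), -0.59 ± 0.29 for Gclc (adjusted p = 0.67), -0.20 ± 0.28 for Gclm (adjusted p = 0.969) and 0.15 ± 0.34 for Slc7a11 (adjusted p = 0.998). With 1 library of each subset grown alone, differences of that size were not resolved.

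Differences between CD26+ and CD26- NFs were small for most members. Over the 3 gels with both subsets, an unadjusted p under 0.05 was reached by 14 members higher in CD26+ NFs and 2 lower. Of all genes, 3752 of 15013 reached it in both directions. DESeq2 called 6 members higher and 0 lower, and of all genes 807 and 869. With edgeR 5 of 35 members were called higher in CD26+ NFs and 0 lower, against 3.93% and 3.6% of all genes. They were Selenop (1.73 ± 0.38, adjusted p = 0.0282), Gpx3 (0.82 ± 0.12, adjusted p = 0.00651), Gpx1 (0.55 ± 0.14, adjusted p = 0.043), Gsr (0.52 ± 0.14, adjusted p = 0.0499) and Gstm1 (0.47 ± 0.11, adjusted p = 0.0342), that is 2 peroxidases, the selenium carrier, the reductase and a transferase. Without gel 5 none of the 5 was called, where 17 of 14434 genes were called in all against 1130 of 15013 with it (Gpx3 0.79, Selenop 1.38). Without gel 4 Selenop, Gpx1 and Gsr were not, while Gpx4, Gss and Taldo1 were called higher and Slc7a11 lower in CD26+ NFs (-0.58, adjusted p = 0.0366). Without gel 1 Gstm1 was not called. Without the filter on low counts Selenop and Gpx3 kept their calls, Gpx1, Gsr and Gstm1 lost theirs, and Gstt1 was called. Gstt1 was also called higher in CD26+ NFs with gel as a block, with DESeq2 and without gel 1. By gel, 21 of 34 members were higher in CD26+ NFs in all 3 gels and 1, Gclm, was lower in all 3, against 37.1% and 13.3% of 13350 genes, with median log2 CPM ratios of 0.41, 0.13 and 0.47 in gels 1, 4 and 5 (all genes 0.13, 0.15 and 0.20). The values of the canonical genes were -0.01 ± 0.12 for Nfe2l2 (adjusted p = 0.959), 0.20 ± 0.14 for Keap1 (adjusted p = 0.407), 0.09 ± 0.16 for Nqo1 (adjusted p = 0.756), -0.19 ± 0.17 for Hmox1 (adjusted p = 0.531), 0.34 ± 0.15 for Gclc (adjusted p = 0.188), -0.30 ± 0.11 for Gclm (adjusted p = 0.146) and -0.39 ± 0.15 for Slc7a11 (adjusted p = 0.141). The epithelial share was higher in CD26+ than in CD26- NFs in both co-cultures, and its part in these differences was not tested. Carried-over RNA would make up no more than 0.5% of the level of Gpx3 and Selenop in any co-cultured NF library, 5.4% to 6.9% of that of Gpx1, and the share given above of that of Gsr.

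Within co-culture alone, 4 members were higher in CD26+ NFs and 0 lower, against 3.48% and 2.53% of all genes. They were Selenop (2.45 ± 0.18, adjusted p = 6.275e-06), Gstt1 (2.06 ± 0.33, adjusted p = 0.00228), Gpx3 (0.82 ± 0.17, adjusted p = 0.0117) and Gpx1 (0.69 ± 0.17, adjusted p = 0.0336). With gel as a block, in a fit of the 4 co-cultured libraries without those of gel 1, the count was 9, with Cbr3, Gsr and Gstm1 also higher and Mgst1 and Prdx1 lower in CD26+ NFs. The block and the set of libraries thus changed together, and that fit called 2407 of 14410 genes, against 975 of 16231 without the block. In the fit of 6 libraries, the count was 0 without CD26+ NFs of gel 4 or of gel 5, when 0 of 15823 and 2 of 16041 genes were called in all and the values stayed close (Selenop 2.34 and 2.53, Gstt1 1.97 and 2.13). Without either CD26- library of these gels, which leaves an arm of 1, Selenop and Gstt1 kept their calls and Gpx3 and Gpx1 did not. Gpx3 was at 0.80 without that of gel 4 and 0.84 without that of gel 5, and Gpx1 at 0.83 and 0.56. Fewer genes were then called among all genes too. DESeq2 also called 4 members, and 756 of 16231 genes. The other values were -0.04 ± 0.17 for Nfe2l2 (adjusted p = 0.936), 0.18 ± 0.18 for Keap1 (adjusted p = 0.653), -0.08 ± 0.18 for Nqo1 (adjusted p = 0.862), -0.39 ± 0.19 for Hmox1 (adjusted p = 0.279), 0.14 ± 0.16 for Gclc (adjusted p = 0.706), -0.37 ± 0.16 for Gclm (adjusted p = 0.214) and -0.36 ± 0.19 for Slc7a11 (adjusted p = 0.316).

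**Figure D5:**
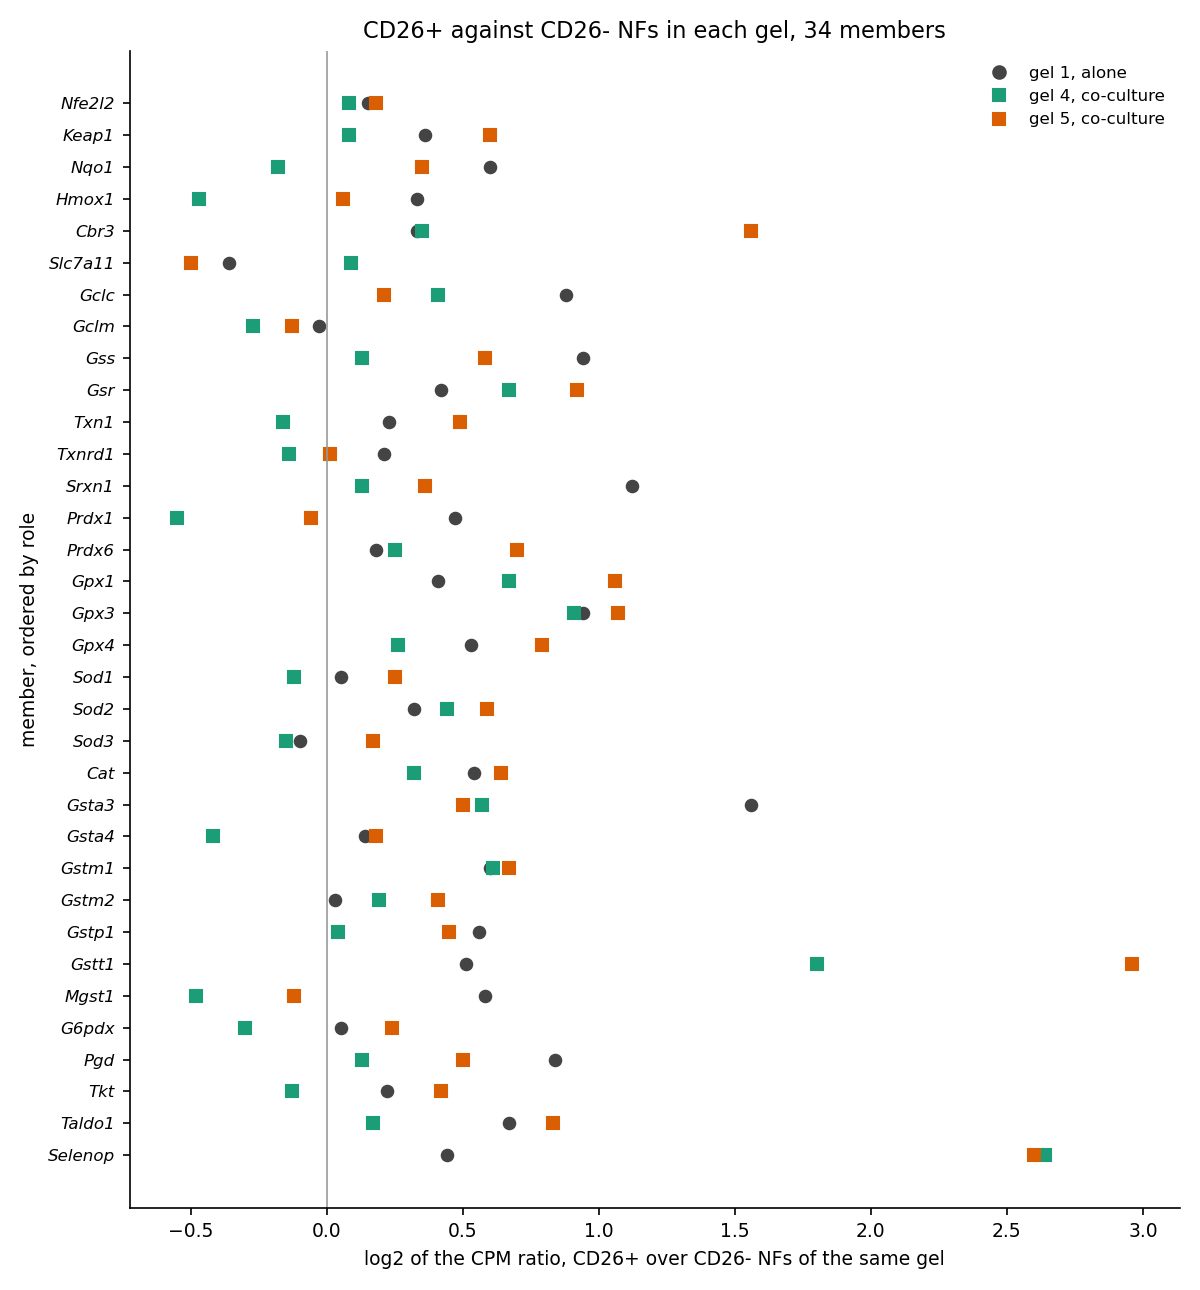
Log2 of the CPM ratio of CD26+ to CD26- NFs of the same gel for 34 members (rows, ordered by role), with circles for gel 1 (NFs alone) and squares for gels 4 and 5 (co-culture). Most points lie right of 0, and Selenop and Gstt1 lie at 0.44 and 0.51 in gel 1 and at 1.80 to 2.96 in co-culture.

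Between the tumor lines, 10-SJK-221 minus 13-MCB-17 over both cultures, 2 of 33 members were higher and 11 lower, against 5.93% and 8.54% of all genes, with a median of -0.38. Higher were Gstm1 (1.25 ± 0.14, adjusted p = 0.000856) and Sod3 (0.65 ± 0.17, adjusted p = 0.0404). Lowest were Gstt1 (-3.12 ± 0.48, adjusted p = 0.00384), Gsta1 (-3.00 ± 0.49, adjusted p = 0.00522), Gsta2 (-2.85 ± 0.29, adjusted p = 0.000643) and Nqo1 (-1.69 ± 0.44, adjusted p = 0.0377). The sign of Gsta1 turned with DESeq2 (0.14) and without 13-MCB-17 (4.40) or 10-SJK-221 cells alone (4.42), and Gsta2 and Nqo1 were not called with DESeq2 (adjusted p = 0.549 and 0.415). Slc7a11 (-1.23 ± 0.35, adjusted p = 0.0496) and Gclc (-0.51 ± 0.13, adjusted p = 0.0326) were also called, while Gclm (-0.65 ± 0.40, adjusted p = 0.326), Nfe2l2 (-0.31 ± 0.12, adjusted p = 0.124), Keap1 (0.22 ± 0.10, adjusted p = 0.196) and Hmox1 (-0.22 ± 0.14, adjusted p = 0.362) were not. The call was lost in 7 of 8 alternatives for Gclc and in 5 of 8 for Slc7a11 and for Sod3 (0.28 without either tumor library grown alone), while Gclm was called in 3 of 8: without the filter on low counts and without either co-cultured tumor library. DESeq2 called 3 members and RLE scaling 7. Over all genes these called 939 and 1585 of 13197, against 1910 with edgeR and TMM scaling. A fit over all 10 libraries also called 7 members, where 1065 of 17048 genes were called. Without either tumor library grown alone, which leaves an arm of 1, that fit kept the calls of Gstm1 and Gstt1 only. Gsta2 was then at -0.02 and Nqo1 at -1.14, and fewer genes were called among all genes too.

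The line in the gel left no called trace in the members of NFs. Gel 5 against gel 4 gave 0 of 35 members called higher and 0 lower, against 1.25% and 0.861% of all genes. An unadjusted p under 0.05 was reached by 2 members higher and 1 lower, and by 1690 of 14410 genes in both directions. DESeq2 also called 0 members, and 38 of 14410 genes. Gsta2 came nearest (0.58 ± 0.19, adjusted p = 0.0736), and it and the other values in this paragraph past the rule for named genes were picked after they were seen. The canonical genes ranged from -0.16 ± 0.17 (Slc7a11, adjusted p = 0.82) to 0.16 ± 0.17 (Nfe2l2, adjusted p = 0.816, and Keap1, adjusted p = 0.824), with Nqo1 at 0.14 ± 0.17 (adjusted p = 0.855), Hmox1 at -0.11 ± 0.17 (adjusted p = 0.892), Gclc at 0.00 ± 0.17 (adjusted p = 0.996) and Gclm at -0.04 ± 0.17 (adjusted p = 0.967). With 1 gel per line, line and gel cannot be told apart.

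Other genes of the pathway, a list of 59 that holds further glutathione, thioredoxin, iron and export genes and small MAF partners, was counted in the same way. In co-cultured NFs 19 of 57 tested rose and 12 fell, against 25.9% and 22.9% of all genes, with a median of -0.09. In tumor cells 5 of 52 rose and 15 fell, against 10.8% and 11.5% of all genes, with a median of -0.11. Ggt1, which degrades glutathione outside the cell, went from 0.0621 and 0.14 CPM in NFs alone to between 0.748 and 2.30 CPM in co-culture (adjusted p = 0.0018). Against 3 counts in all in NFs alone, the ratio of summed counts was 18.1-fold higher (95% counting interval 6.05 to 89.3). Its relative Ggt5 fell from 109.5 and 148 CPM to between 6.79 and 17.3 CPM (-3.38 ± 0.19, adjusted p = 1.2e-06). Abcc4, an exporter, rose from 27.6 and 29.7 CPM to between 156 and 170.1 CPM (2.56 ± 0.14, adjusted p = 1.195e-06), and Gstt3, a theta-class transferase like Gstt1, fell (-1.85 ± 0.23, adjusted p = 0.000168). In tumor cells Aldh3a1, an aldehyde dehydrogenase, fell from 371 and 232 CPM to 26.02 and 54.9 CPM (-2.96 ± 0.35, adjusted p = 0.000877), and Gstp2 fell (-1.44 ± 0.27, adjusted p = 0.00672). Txnip, which inhibits thioredoxin, rose there from 45.5 and 53.6 CPM to 283 and 153 CPM (2.05 ± 0.22, adjusted p = 0.000599), and Ggt5 rose from 0.326 and 0.509 CPM to 7.47 and 2.68 CPM (3.49 ± 0.50, adjusted p = 0.00209).

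Between the cell types, 22 of 57 other pathway genes were higher and 22 lower in NFs alone (32.3% and 29.6% of all genes), and 25 and 13 in co-culture (32.4% and 27.1%), where Gpx7 led in NFs (at least 123-fold higher, against 3 counts a library, with 0 counts in tumor cells) and Mgst2 in tumor cells (NFs minus tumor cells -2.45 ± 0.23). The response differed in 17 (higher in NFs) and 12 (lower), against 16.9% and 13.8% of all genes, led by Gstp2 (3.89 ± 0.56), Abcc4 (3.40 ± 0.28) and, at the other end, Ggt5 (-6.92 ± 0.47). By subset, Mgst2 (1.38 ± 0.32, adjusted p = 0.0356) and Cbr1 (0.59 ± 0.14, adjusted p = 0.04) were among 3 of 57 that were higher in CD26+ NFs, and 0 were lower, against 3.93% and 3.6% of all genes. The part of RNA carried over from tumor cells, where Mgst2 was higher, was not tested. The interaction called Ephx1, epoxide hydrolase 1 (-1.81 ± 0.31, adjusted p = 0.0221): it was at 84.1 and 278 CPM in CD26- and CD26+ NFs alone and between 168 and 202 CPM in all 4 co-cultured NF libraries.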

How the data were processed

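RNA of 10 sorted libraries was made into stranded mRNA libraries and sequenced in paired ends of 54 cycles, per the labels. Per the submitters' processing notes, reads were aligned with HISAT2 2.2.1 to GRCm38. Which program counted the reads, whether it used strand and which annotation it read are not given in the sources used here. The deposited values were raw read counts per gene, as the authors summed them, for 55486 genes, and every count carried a gene identifier. Depth ran from 14142334 to 18408940 counts a library, so a level of 0.163 to 0.212 CPM rested on 3 counts. Replicate libraries were not copies of each other (chi-square per degree of freedom 16.9 to 55.7).

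CPM were computed from the total counts. Each comparison was fitted on all genes with edgeR 4.0.16 (R 4.3.3): TMM scaling, filterByExpr, quasi-likelihood F test and Benjamini-Hochberg adjustment over all genes tested, with a call at an adjusted p under 0.05. Errors beside log2 fold changes are SE, from the fold change and its F value. The study's methods used DESeq2, which was run here as an alternative (DESeq2 1.42.0). NF comparisons used 6 libraries, tumor comparisons 4 with line as a term, and comparisons of cell types all 10. Exon positions and lengths came from GENCODE M21, which held 99.53% of the genes of the table, 99.42% of these at the same position. Shared sequence was counted as 54-base windows of a member's transcripts found in another gene's. RNA carried over into co-cultured NFs was estimated as the share of summed epithelial markers times the level in tumor cells of the same gel. Both NF subsets and the tumor cells of gels 4 and 5 shared a gel, and the numbers in the labels mark that gel. Deviations from group means correlated at 0.247, 0.18 and 0.096 between the groups over 14707 genes.

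The 37 members and the lists of roles, markers and other pathway genes were chosen with earlier results of these data known. Named with fold change, SE and adjusted p were, per comparison, the 4 highest and 4 lowest called members at a mean of at least 1 CPM, and Nfe2l2, Keap1, Nqo1, Hmox1, Gclc, Gclm and Slc7a11; of other pathway genes, up to 2 at each end. Further members were named by role, with their values in view. Scripts were tested on simulated data. One further element of the tumor genotype is not reported here. The alternatives were RLE scaling, no filter on low counts, DESeq2, gel as a block, no line term, a fit over all libraries and leaving out libraries.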

Additional observations from a re-analysis of the deposited data

Results flagged for a closer look

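Because the test of the difference in response to co-culture between NFs and tumor cells passed the threshold, 28 members are listed here with that difference on the log2 scale (NFs minus tumor cells). The highest were Gsta2 (16.09, a fitted value that depends on the prior count, since CD26- NFs alone had 0 counts and co-cultured tumor cells 4), Slc7a11 (5.98), Nqo1 (5.57), Gsta3 (4.89, with tumor levels of at most 2.01 CPM) and Gsta4 (4.72). Values between 2 and 3 were found for Taldo1 (2.68), Gstp1 (2.62), Gclm (2.59), Gss (2.51), Gclc (2.48), Srxn1 (2.37), Prdx6 (2.36) and Txnrd1 (2.29). Between 1 and 2 lay Cat (1.87), Prdx1 (1.65), Hmox1 (1.39), Tkt (1.31), G6pdx (1.13) and Gstm1 (1.05). Under 1 lay Txn1 (0.99), Pgd (0.88), Gsr (0.84), Gpx4 (0.82), Nfe2l2 (0.64) and Sod1 (0.62). Keap1 (-0.63), Selenop (-3.88) and Gstt1 (-4.29) had the lower change in NFs. NFs and tumor cells grown alone came from different gels, and that part of the difference cannot be told apart from the culture.

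Selenop is listed a second time because its response to co-culture differed between CD26+ and CD26- NFs by 2.16 on the log2 scale (SE 0.30, edgeR adjusted p = 0.00739), over 1 library of each subset alone and 2 in co-culture.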

How the results depend on the processing

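Total counts of members called in co-culture against growth alone in NFs, between the cell types and in the difference of response stayed within 1.5 times under every alternative run. Others did not, and the cause was not tested. For the subset over 3 gels, 5 became 3 without the filter on low counts (2 of them among the 5), and leaving out 1 gel gave 0 to 6 (0 without gel 5). For the subset in co-culture, 4 became 9 with gel as a replicate block in the 4 co-cultured libraries alone, which changed the libraries too and called 2407 of 14410 genes against 975 of 16231, and leaving out 1 library gave 0 to 2. For the interaction, 1 became 2 with the block (Gstt1 was added), and leaving out 1 library gave 0 to 1. For co-culture in tumor cells, 25 became 0 without the line term, and leaving out 1 library from the fit over all 10, which called 22, gave 6 to 18. For the tumor line, 13 became 7 with RLE scaling, 21 without the filter and 3 with DESeq2. The fit over all 10 libraries called 7 members, and leaving out 1 library from it gave 2 to 11. Among all genes, 1910 of 13197 became 1585 with RLE scaling, 2917 of 24015 without the filter and 939 with DESeq2. The fit over all 10 libraries called 1065 of 17048 genes, and leaving out 1 library from it gave 401 to 526. The pairing by gel changed no other count past that limit (subset over 3 gels 6, cell type in co-culture 27).

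Among 138 results of named members under 1095 alternatives, 971 kept direction and side of the threshold, 114 fell short of it and 7 newly passed it. The sign of Gsta1 between the tumor lines turned with DESeq2 (0.14) and without 13-MCB-17 (4.40) or 10-SJK-221 cells alone (4.42), within a range of -3.19 to 4.42 when 1 library was left out. A left-out library leaves an arm of 1, assumed to vary like the others. Gsta1, Gsta2, Gsta3 and Gpx3 had at most 3 counts in a co-cultured tumor library, so their ratios there have wide counting intervals.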
